A study of Mus musculus with 6 samples.

Results

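The genes that carry a cell through mitosis were followed in mouse skeletal stem cells of the Achilles tendon-to-bone interface, a set of 59 genes of cyclin-dependent kinase control, kinetochore, spindle, chromosome condensation and cytokinesis. They were chosen by gene symbol, and all 59 were found among the 26130 genes of the deposited count table. The cells came from C57BL/6 mice and were isolated by fluorescence-activated cell sorting. The 6 libraries fall into 3 groups. Sham control has 2 libraries, uninjured has 1, and injured has 3, taken at day 7 after a partial injury of the interface. The library labelled uninjured is called a sham in its description field, so it is given apart from the sham libraries first and joined to them afterwards. No label says whether a library is 1 mouse or a pool, so p-values measure the spread between these libraries, which may be technical.

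A dividing cell raises its mitotic genes in G2, under the MuvB complex, B-Myb (Mybl2) and Foxm1, and destroys many of the proteins again as anaphase begins. Cyclin B with Cdk1 starts mitosis, the kinetochore couples each centromere to spindle microtubules, and the spindle checkpoint holds the anaphase-promoting complex back until every chromosome is attached. Resting cells keep these genes silent, and adult skeletal stem cells are known as slowly cycling cells that can be called into division by damage.

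Letters of known control elements were looked for in the promoters of these genes, and they are given before the values. The cell cycle genes homology region (CHR) is the element that MuvB contacts, and the CCAAT box is bound by the trimeric factor NF-Y. RefSeq promoter windows of GRCm38.p6, each 250 bases before to 50 after a start site, matched 50 of the 59 genes with 57 windows, and windows of 1 gene can overlap. The CHR was searched as TTTGAA or TTCGAA and the CCAAT box as CCAAT, on both strands. No CHR match overlaps a CCAAT match in the 250-base stretches shown. For display, genes with both a CHR and a CCAAT match were taken first, then ordered by the smallest p in injured against sham control. Gtse1, Nek6 and Birc5 had smaller p than Espl1 but no CHR match, so they are not shown. Below are 30 bases around the CHR match nearest the start site in the 6 genes taken, on the coding strand, with the match in capitals.
Kif23: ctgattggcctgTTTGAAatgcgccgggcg
Espl1: tcactagggataTTTGAAaggaggtgctgg
Cenpf: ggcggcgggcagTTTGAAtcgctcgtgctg
Kif22: gggccccggtaaTTCAAAagagagaagcgg
Racgap1: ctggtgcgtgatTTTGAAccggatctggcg
Prc1: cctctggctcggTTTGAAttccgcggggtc

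These stretches lie at chr9:61946780-61946809 (Kif23, minus strand), chr15:102296254-102296283 (Espl1, plus strand), chr1:189688067-189688096 (Cenpf, minus strand), chr7:127042420-127042449 (Kif22, minus strand), chr15:99651634-99651663 (Racgap1, minus strand) and chr7:80294434-80294463 (Prc1, plus strand). In Kif22 the match is TTCAAA, which is TTTGAA read on the other strand. The match began at base 3 after the start in Kif23 and Cenpf, counting the start as base 1, and at base 6 in Racgap1. It began 5 bases before the start in Prc1, 17 in Kif22 and 27 in Espl1. The 250 bases before the start of Espl1, the separase gene, at chr15:102296043-102296292 on the plus strand, and of Kif22, a chromosome-arm kinesin, at chr7:127042421-127042670 on the minus strand, hold both elements and show their spacing, with CHR and CCAAT matches in capitals.
Espl1: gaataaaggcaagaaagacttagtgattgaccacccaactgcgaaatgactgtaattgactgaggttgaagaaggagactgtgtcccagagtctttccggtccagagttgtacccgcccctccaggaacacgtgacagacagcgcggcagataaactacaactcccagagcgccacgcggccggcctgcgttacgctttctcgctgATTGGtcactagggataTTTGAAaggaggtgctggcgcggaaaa
Kif22: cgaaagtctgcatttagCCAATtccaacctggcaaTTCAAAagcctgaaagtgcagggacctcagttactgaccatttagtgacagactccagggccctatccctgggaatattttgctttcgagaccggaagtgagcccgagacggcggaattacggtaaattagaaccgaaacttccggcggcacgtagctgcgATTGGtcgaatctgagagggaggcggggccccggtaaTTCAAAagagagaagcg

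In Espl1 the inverted CCAAT box ATTGG began 44 bases before the start and the CHR 27 bases before it. In Kif22 the near ATTGG began 54 bases and the near CHR 17 bases before the start, and a further CCAAT and CHR match lay 233 and 215 bases before it. Among the mitotic promoters 40 of 57 windows (70.2%) held a CHR match, against 19.2% of all 32851 windows in the table. A CCAAT box was found in 45 of 57 (78.9%) against 37.4%, and both elements in 36 of 57 (63.2%) against 7.52%. Matches to the E2F letters TTTGGCGC, TTTCGCGC, TTTGCCGC or TTTCCCGC were in 3 windows (5.26%), against 2.26% of all windows. In windows of DNA replication genes, which are transcribed earlier in the cycle, CHR letters were in 4 of 26 (15.4%), the CCAAT box in 16 of 26 (61.5%) and E2F letters in 10 of 26 (38.5%). In windows of other mitosis genes outside the set, CHR letters were in 28 of 53 (52.8%), the CCAAT box in 27 (50.9%) and both in 15 (28.3%). These shares describe letters only, and binding was not measured.

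**Figure D1:**
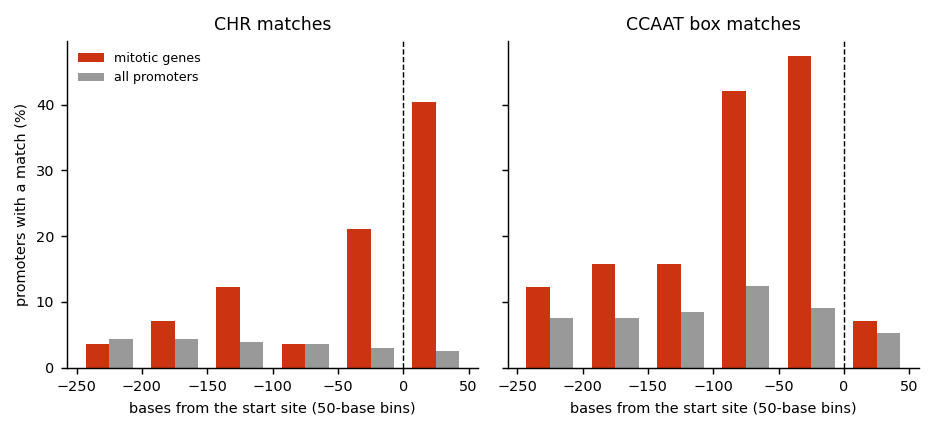
Share of promoter windows (%) with a CHR match (left) or a CCAAT match (right) in bins of 50 bases from the start site, for 57 windows of mitotic genes (red) and all 32851 windows (grey). CHR matches of mitotic genes crowd into the first 50 bases after the start (40.4% of windows). Their CCAAT matches lie mostly in the 100 bases before the start, in 47.4% of windows for the nearer 50 bases and 42.1% for the farther 50. Of all windows 9.03% and 12.5% held a CCAAT match there.

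The counts behind the expression values were deep but came from little RNA. Totals ran from 37506188 to 51089267 counts per library, and each library was amplified from 150 pg of RNA, so a rare transcript can be missed or overcounted. Itgav and Cd200, which encode surface proteins by which mouse skeletal stem cells are commonly sorted, were detected in every library. So were Col1a1, Pdgfra and Prrx1 of connective tissue, but presence alone does not show that cell content was alike. The share of ribosomal RNA was 15.0% in sham 1, 14.7% in injured 1 and 2.89% to 5.32% in the other libraries. The same 2 libraries were the richest in erythroid and neutrophil transcripts, and their values are set beside the mitotic genes below. In sorted bulk cells a larger share of dividing cells and more transcript per cell cannot be told apart.

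Levels are given as CPM, a count scaled to library size after TMM scaling of the libraries, and are not compared between genes because they are not per length. Mitotic genes stood higher in injured cells as a group. Their median level was 19.6, 27.3 and 24.0 CPM in injured 1, 2 and 3, against 9.14 and 2.54 CPM in sham 1 and 2 and 0.341 CPM in the uninjured library. Summed over the 59 genes, the injured libraries held 1596, 1992 and 1736 CPM, the sham libraries 723 and 355, and the uninjured library 277. The mean over genes of log2(CPM + 1) was 4.40 ± 0.39 in injured (SD, n = 3) and 2.35 ± 0.76 in sham control (SD, n = 2), and no library of one group reached the range of the other. No test is given for this mean, because the genes were chosen with results of these data known.

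**Figure D2:**
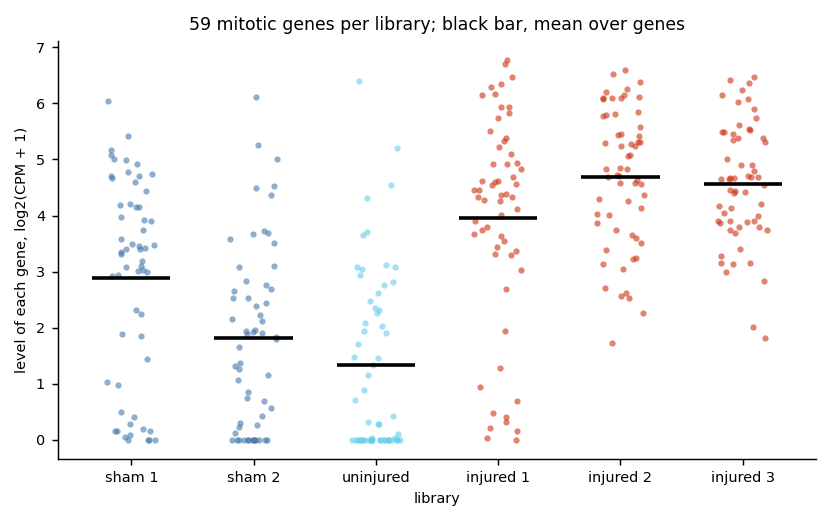
Level of each of the 59 mitotic genes, log2(CPM + 1), in each library (points), with the mean over genes as a black bar. The bars stand at 3.95, 4.68 and 4.56 in injured 1, 2 and 3, at 2.89 and 1.81 in sham 1 and 2, and at 1.34 in the uninjured library, where many genes are at 0.

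Mitotic genes without any count were most frequent in the uninjured library, and in sham 1 they were rarer than among all genes. The uninjured library had no count of 23 of the 59 genes (39.0%), although 16.3% of all genes tested had none in it. Sham 2 lacked 13 (22%, against 17.6% of all genes) and sham 1 lacked 4 (6.78%, against 15.9%). Injured 2 and 3 had at least 140 and 117 counts of every mitotic gene, and injured 1 lacked only Cdc25c. The uninjured library was lowest, or tied for lowest, for 37 genes (62.7%, against 30.9% of all genes). Injured 2 and 3 were highest for 24 and 16 genes (40.7% and 27.1%, against 12.5% and 13.8% of all genes). Injured 1 was highest for 15 (25.4%), near its 21.3% of all genes.

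Injured against sham control was tested for each gene with edgeR's quasi-likelihood test, adjusted over the 16752 genes tested, all 59 mitotic genes among them. No mitotic gene passed an adjusted p of 0.05, as no gene of the whole table did (0% called), and the smallest adjusted p among the 59 was 0.525 (Kif23), then 0.641 (Gtse1). For the other 57 the edgeR adjusted p was 0.865 or higher, which holds for each fold change against sham control below. By edgeR 23 of 59 had an unadjusted p under 0.05 with higher levels in injured cells and 0 with lower levels, where 2.44% of all genes tested were higher and 2.20% lower at that limit. The log2 fold change was above 0 for 54 of 59 genes (53.7% of all genes), with a median of 2.13 against 0.09 over all genes. In 39 of 59 genes every injured library stood above both sham libraries (11.9% of all genes), and in 1, Pttg1, every injured library stood below them (9.12%). DESeq2 called 10 of the 59, all higher (1.43% of all genes were called higher by it and 0.770% lower). These were Ccna2, Nek6, Birc5, Cenpf, Cenpe, Cenpn, Ttk, Espl1, Gtse1 and Kif23. Mki67, Top2a, Cdk1 and Foxm1 were not called (DESeq2 adjusted p = 0.540, 0.464, 0.733 and 0.736). The erythroid gene Slc4a1 had 391 counts in sham 1 and no count in any other library. DESeq2 called it lower (adjusted p = 5.94e-06), where the edgeR adjusted p was 0.865. A small DESeq2 adjusted p can therefore rest on 1 library where a group has no count. Exons of 12 of the 59 genes overlap a gene on the opposite strand, Nek6, Ccna2, Cdc20, Ube2c, Prc1 and Kif20a among them. Reads from the overlap cannot be told apart if strand was not used in counting. In 2 further genes, Foxm1 and Ncapd2, an exon overlaps a gene on the same strand (Tex52 and Scarna10), where strand does not help. Limma-voom called 0 of the 59 (of all genes 0 higher and 1 lower), with 26 at an unadjusted p under 0.05, for which the share of all genes is not given.

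**Figure D3:**
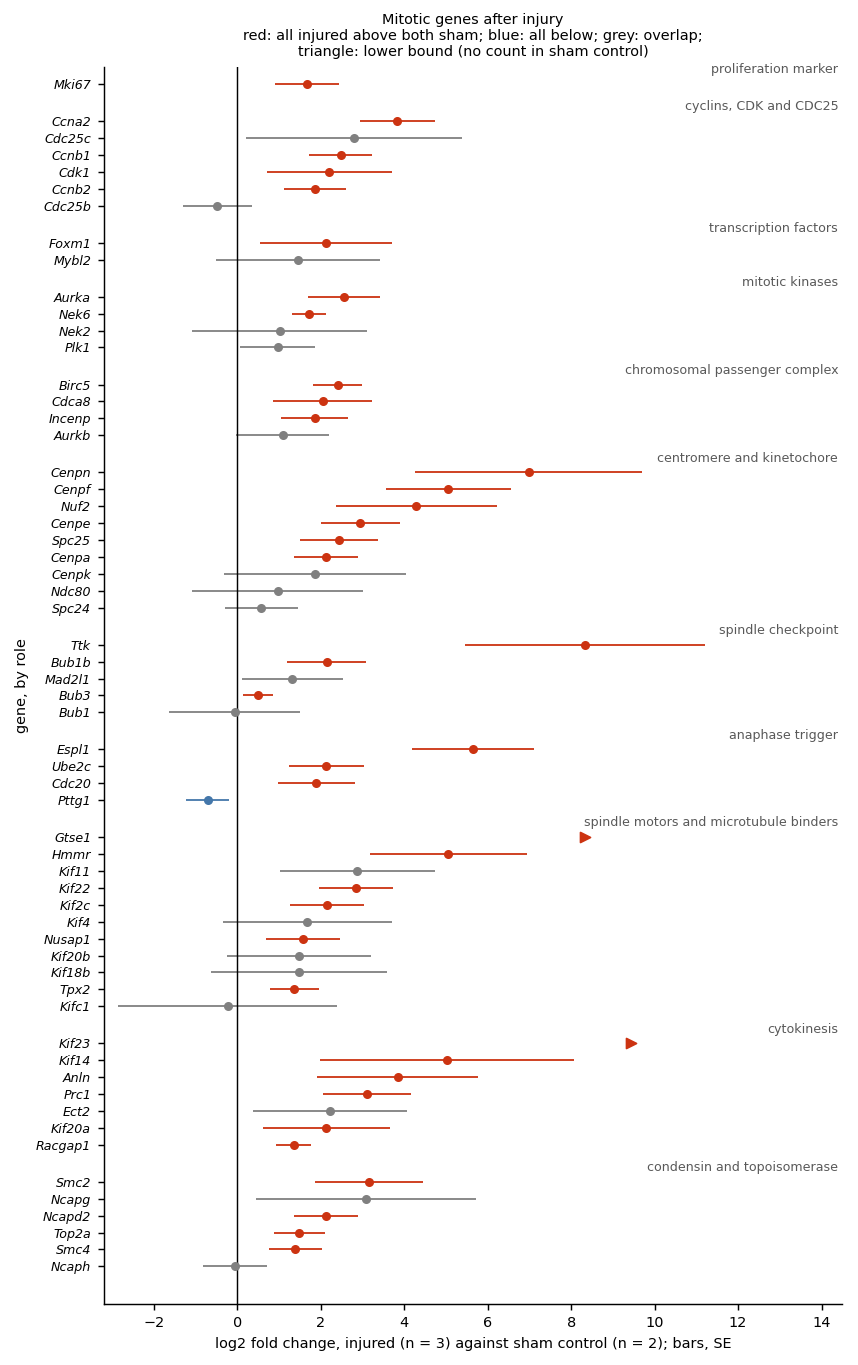
Log2 fold change of each mitotic gene, injured (n = 3) against sham control (n = 2), grouped by role. Bars are an approximate SE, the absolute log2 fold change divided by the square root of the F statistic of the edgeR test. Red genes had all injured libraries above both sham libraries (39), the blue gene Pttg1 all below, which did not hold with library size alone as the scaling, and grey genes overlapped (19); triangles mark lower bounds for Kif23 and Gtse1, which had no count in sham control.

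Entry into mitosis is driven by cyclins A and B with Cdk1. Ccna2, the cyclin of S phase and G2, stood at 6.68 and 1.08 CPM in sham 1 and 2, at 0 in the uninjured library and at 52.7, 68.4 and 45.2 CPM in injured 1, 2 and 3. The groups were far apart, and the log2 fold change was 3.84 ± 0.91 (SE, DESeq2 adjusted p = 0.00222). Ccnb1, a cyclin B, stood at 20.6 and 4.39 CPM in the sham libraries, at 0.0730 in uninjured and at 88.2, 67.1 and 52.8 CPM in injured. Its partner isoform Ccnb2 stood at 23.1 and 5.80, at 0.341, and at 36.5, 75.2 and 45.5 CPM in the same order. Neither cyclin B overlapped between injured and sham, and their log2 fold changes were 2.47 ± 0.75 and 1.86 ± 0.74 (SE).

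The kinase Cdk1 showed how far the sham libraries differ from each other. It stood at 25.2 CPM in sham 1 and 0.193 in sham 2, at 0 in uninjured, and at 70.3, 47.0 and 58.7 CPM in injured 1, 2 and 3. Every injured library was higher than sham 1, yet the spread within sham gave a log2 fold change of 2.21 ± 1.5 (SE). The CDC25 phosphatases, which switch Cdk1 on, did not share the pattern. Cdc25b stood at 41.7 and 7.57 CPM in sham, 22.2 in uninjured and 23.2, 9.46 and 20.3 CPM in injured, with the injured values inside the sham range. Cdc25c had no count in injured 1 and stood at 12.3 and 12.4 CPM in injured 2 and 3, against 0.216 and 2.15 CPM in sham and 0 in uninjured.

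The transcription factors of mitotic genes were low in opposite sham libraries. Foxm1, the forkhead activator of G2 genes, stood at 0.108 CPM in sham 1 and 19.7 in sham 2, at 0.852 in uninjured and at 60.4, 38 and 31.0 CPM in injured. Mybl2, which encodes B-Myb, stood at 12.4 and 0 CPM in sham 1 and 2, at 4.07 in uninjured and at 27.6, 11.5 and 12.3 CPM in injured. All injured libraries exceeded both sham libraries for Foxm1 but not for Mybl2. Mki67, the proliferation antigen Ki-67 that coats mitotic chromosomes, stood at 32.8 and 7.46 CPM in sham, 3.97 in uninjured and 33.4, 82.5 and 74.8 CPM in injured. Injured 1 exceeded sham 1 by less than 1 CPM (log2 fold change 1.66 ± 0.77, SE).

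Among mitotic kinases Nek6, a NIMA-related kinase of the spindle, was separated by a wide gap. It stood at 26.5 and 31.3 CPM in sham, 18.9 in uninjured and 109, 91.5 and 84.4 CPM in injured 1, 2 and 3. The lowest injured library was 2.70-fold above the higher sham library, and the log2 fold change was 1.72 ± 0.40 (SE, DESeq2 adjusted p = 0.00343). Aurka, the centrosomal Aurora kinase, stood at 6.57 and 2.54 CPM in sham, 0.243 in uninjured and 21, 42.4 and 16.9 CPM in injured. Its log2 fold change was 2.55 ± 0.87 (SE). Plk1, the polo kinase of centrosome and kinetochore, overlapped, at 30.8 and 3.65 CPM in sham, 2.85 in uninjured and 44.7, 27.3 and 29.0 CPM in injured, and so did the centrosomal kinase Nek2 (10.2 and 0, 0.219, and 8.83, 4.74 and 17.4 CPM in that order).

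The chromosomal passenger complex corrects faulty attachments of chromosomes to the spindle. Its member survivin (Birc5) stood at 7.14 and 11.9 CPM in sham, at 0 in uninjured and at 40.9, 70.3 and 40.8 CPM in injured. The sham libraries lay close together here, and the log2 fold change was 2.41 ± 0.58 (SE, DESeq2 adjusted p = 0.00619). The scaffold Incenp stood at 10.1 and 3.42, 7.50, and 16.4, 32.8 and 24.6 CPM, and borealin (Cdca8) at 14.7 and 0.663, 1.51, and 29.2, 37.0 and 28.8 CPM, for sham, uninjured and injured. Both had all injured libraries above sham. The catalytic kinase Aurkb overlapped in injured 1 (15.2 CPM, against 16.8 in sham 1).

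**Figure D4:**
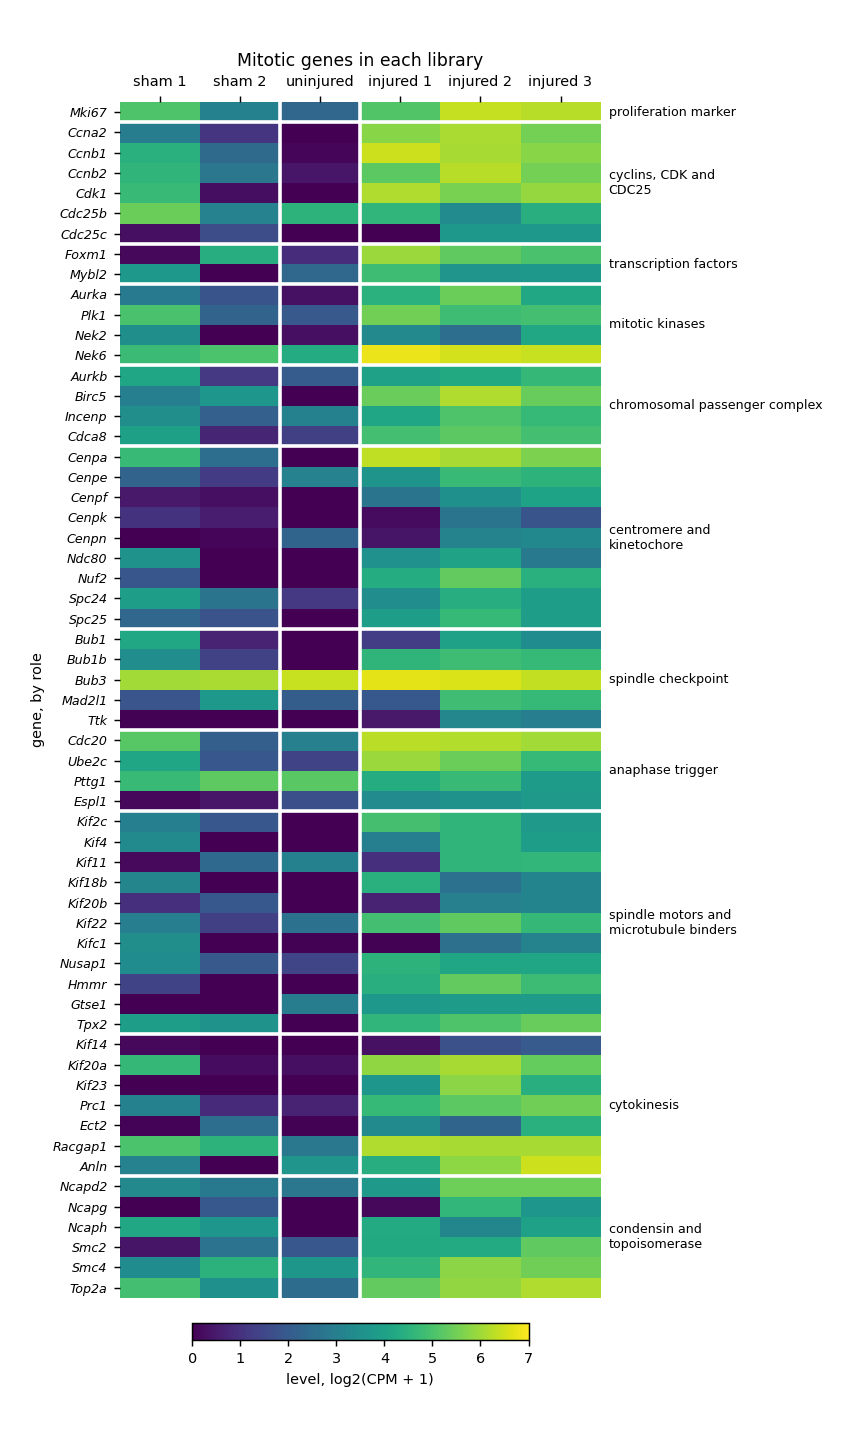
Level of each of the 59 mitotic genes (rows, by role) in each of the 6 libraries (columns), as log2(CPM + 1) from 0 (dark) to 7 (bright). The injured columns are brighter for most genes, the uninjured column holds the most dark cells (23 genes with no count), and Bub3 is bright in every library; rows are not compared with each other because levels are not per length.

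At centromere and kinetochore 6 of 9 genes had all injured libraries above both sham libraries, and all 9 had a log2 fold change above 0, that of Ndc80 turning to -0.028 without sham 2. Cenpf, a large kinetochore protein made in G2, stood at 0.405 and 0.221 CPM in sham, at 0 in uninjured and at 5.41, 10.4 and 15.6 CPM in injured. Its log2 fold change of 5.05 ± 1.5 (SE) was called by DESeq2 (adjusted p = 0.000470). Cenpe, the kinesin that moves chromosomes to the spindle equator, was higher in uninjured (7.64 CPM) than in sham (3.70 and 1.38) and reached 11.4, 25.4 and 22.2 CPM in injured. Cenpa, the histone variant that marks centromeres, stood at 25.1 and 4.78, at 0, and at 80.1, 67.4 and 48.0 CPM in sham, uninjured and injured.

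The Ndc80 complex, which grips microtubules, was uneven over its 4 genes. Nuf2 stood at 2.68 and 0 CPM in sham, 0 in uninjured and 19.1, 38.8 and 20.7 CPM in injured, and Spc25 at 3.97 and 2.49, 0, and 13.9, 24.9 and 13.9 CPM. Neither overlapped between injured and sham. Ndc80 itself stood at 10.9 CPM in sham 1 and had no count in sham 2 or uninjured, while injured 1, 2 and 3 held 10.7, 15.3 and 6.10 CPM. Spc24 overlapped too, at 13.9 and 5.41, 1.2, and 9.82, 19.5 and 14.0 CPM. Of the inner kinetochore genes, Cenpn stood at 0 and 0.0828 CPM in sham but at 3.8 in uninjured. Injured 1 held 0.317 CPM, below uninjured, and injured 2 and 3 held 7.75 and 8.67 CPM. Cenpk overlapped, with 0.158 CPM in injured 1 and 1.03 in sham 1.

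The spindle checkpoint genes were not uniform. Ttk, the kinase Mps1 that starts checkpoint signalling, stood at 0.0270 and 0 CPM in sham (1 and 0 counts), 0 in uninjured and 0.385, 8.44 and 6.96 CPM in injured. Injured 1 held 17 counts of it, so the log2 fold change of 8.33 ± 2.88 (SE) rests on injured 2 and 3. Bub1b, which encodes the checkpoint protein BubR1, stood at 9.73 and 1.57, 0, and 22.7, 27.5 and 24.7 CPM in sham, uninjured and injured. The kinase Bub1 did not follow it. Bub1 stood at 17.5 and 0.608 CPM in sham, 0 in uninjured and 1.43, 15.1 and 9.53 CPM in injured, with a log2 fold change of -0.06 ± 1.57 (SE). That fold was 3.83 without sham 1 and 0.44 without injured 1, so its direction rests on single libraries. Mad2l1, the Mad2 protein that inhibits Cdc20, stood at 2.62 and 12.2, 3.21, and 2.81, 27.7 and 24.8 CPM. Bub3, which also serves in interphase, was present in all libraries, at 64.8 and 68.5 CPM in sham, 83.6 in uninjured and 103, 96.1 and 81.6 in injured, and its log2 fold change was 0.49 ± 0.36 (SE).

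The genes of anaphase onset held opposite patterns. Espl1, the separase that cuts cohesin, stood at 0.108 and 0.331 CPM in sham, 2.26 in uninjured and 9.32, 11.1 and 12.9 CPM in injured. The log2 fold change of 5.64 ± 1.46 (SE) had a DESeq2 adjusted p = 2.54e-06. Its inhibitor securin (Pttg1) was the 1 mitotic gene with every injured library below both sham libraries. Pttg1 stood at 25.6 and 37.3 CPM in sham, 36.1 in uninjured and 19.0, 25.2 and 13.5 CPM in injured (log2 fold change -0.71 ± 0.52, SE), and the groups overlapped when library size alone was the scaling. Cdc20, the activator of the anaphase-promoting complex, stood at 35.1 and 3.31, 7.23, and 77.1, 72.4 and 64.5 CPM in sham, uninjured and injured. Its ubiquitin-conjugating partner Ube2c stood at 16.7 and 2.71, 1.73, and 60.4, 41.8 and 25.0 CPM, and neither overlapped.

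Spindle motors and microtubule binders had a log2 fold change above 0 in 10 of 11 genes, and 6 of 11 did not overlap with sham. Gtse1, a microtubule-tip protein of G2 and mitosis, had no count in either sham library and 6.65 CPM in uninjured, against 12.4, 13.6 and 13.7 CPM in injured. That is at least 323-fold above sham control, taking 3 counts over the group as the floor (edgeR adjusted p = 0.641). The uninjured library thus lies between sham control and injured for this gene. Hmmr, a spindle-pole protein, stood at 1.70 and 0 CPM in sham, 0 in uninjured and 19.9, 38.6 and 26.8 in injured. Kif22 stood at 6.95 and 1.49, 5.11, and 29.1, 38.2 and 24.3 CPM in sham, uninjured and injured (log2 fold change 2.85 ± 0.88, SE). The microtubule-depolymerising motor Kif2c stood at 7.08 and 2.76, 0, and 29.6, 22.8 and 12.8 CPM.

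In the same role the spindle factor Tpx2 stood at 14.1 and 10.9, 0, and 23.4, 32.6 and 40.8 CPM, and Nusap1 at 9.54 and 2.87, 1.78, and 22.2, 16.5 and 16.6 CPM. Both kept all injured libraries above sham. Kif11, the motor that pushes spindle poles apart, stood at 0.905 CPM in injured 1 and at 23.0 and 24.0 in injured 2 and 3, against 0.135 and 4.23 in sham and 7.47 in uninjured. Kif20b, Kif4, Kif18b and Kifc1 overlapped as well. The chromosome-arm motor Kif4 stood at 9.14 and 0 CPM in sham, 0 in uninjured and 7.17, 22.7 and 14.0 CPM in injured, and Kif18b was likewise highest of the non-injured libraries in sham 1 (8.16 CPM, against 20.9, 5.12 and 7.92 in injured). Kifc1 stood at 9.95 CPM in sham 1 and 0.0226 in injured 1, and its reads may be shared with the near-identical Kifc5b.

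Of the roles with more than 2 genes, cytokinesis, the cutting of the cell, had the highest share of separated genes, 6 of 7, and the highest median log2 fold change, 3.10. Kif23, the midzone motor of the centralspindlin complex, had no count in any of the 3 non-injured libraries and stood at 11.8, 53.7 and 20.2 CPM in injured. It was at least 696-fold above sham control on the same floor (edgeR adjusted p = 0.525, DESeq2 adjusted p = 4.56e-09). Its centralspindlin partner Racgap1 was already expressed in sham, at 31.3 and 22.1 CPM, with 6.04 in uninjured and 70.7, 67.4 and 66.7 CPM in injured. The injured values lay close together, and the log2 fold change was 1.35 ± 0.42 (SE).

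The midzone bundler Prc1 stood at 7.41 and 0.801 CPM in sham, 0.633 in uninjured and 24.9, 36.8 and 43.9 CPM in injured (log2 fold change 3.10 ± 1.05, SE). Anillin (Anln), the scaffold of the cleavage furrow, stood at 7.54 and 0 CPM in sham, 11.5 in uninjured and 19.6, 54.9 and 87.5 CPM in injured. Kif20a stood at 24.5 and 0.166, 0.219, and 56.0, 66.7 and 39.9 CPM. Kif14 was scarce in every library, at most 3.02 CPM. Ect2, the exchange factor that activates RhoA at the furrow, was the 1 gene of this role that overlapped, with 3.77 CPM in injured 2 and 4.78 in sham 2.

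Condensin folds chromosomes with topoisomerase II. Top2a stood at 29.1 and 10.4 CPM in sham, 4.55 in uninjured and 39.1, 56.9 and 70.2 CPM in injured (log2 fold change 1.49 ± 0.61, SE). Smc2, a core ATPase of condensin, stood at 0.324 and 5.30, 2.75, and 18.1, 18.6 and 38.5 CPM, and its partner Smc4 at 9.57 and 21.4, 12, and 23.4, 54.3 and 44.0 CPM. Each had all injured libraries above both sham libraries. The condensin subunit Ncapd2 stood at 8.89 and 6.13, 5.79, and 12.8, 43.1 and 43.0 CPM, whereas the kleisin Ncaph overlapped, at 17.2 and 11.7, 0, and 18.4, 8.34 and 15.0 CPM (log2 fold change -0.06 ± 0.77, SE, and 0.25 without sham 1 or 0.20 without injured 2). Ncapg had 0.113 CPM in injured 1 and 23.7 and 11.9 in injured 2 and 3.

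Several libraries took part in the overlaps. Of the 19 genes with overlap, sham 1 was the higher sham library for 13, and injured 1, 2 and 3 failed to exceed the higher sham library for 14, 9 and 8. For 9 of the 19 injured 1 was the only injured library not above sham: Cdc25c, Aurkb, Cenpk, Spc24, Mad2l1, Kif4, Kif11, Kif20b and Ncapg. Injured 1 was at less than 0.1 of both other injured libraries for 8 of the 59 genes (13.6%), close to the 12.6% of all genes tested. Taken 1 at a time, injured 1, 2 and 3 stood above sham 1 for 47, 50 and 50 of 59 genes (46.8%, 50.6% and 54.7% of all genes). Injured 1 and 3 stood above sham 2 for 52 and 58 of 59 genes (45.7% and 54.5% of all genes).

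Transcripts of blood cells were most abundant in the same libraries. The 7 erythroid markers summed to 38765 CPM in sham 1 and 1.19 in sham 2, 127 in uninjured, and 6077, 594 and 7.41 CPM in injured 1, 2 and 3. The 10 neutrophil and granulocyte markers, which include Mpo and Elane of dividing precursors, summed to 9944 and 23.1, 792, and 6316, 558 and 4.43 CPM in the same order. The 10 macrophage markers summed to 2893 and 47.3, 176, and 4855, 1218 and 37.3 CPM. Injured 3 and sham 2 were poor in all of them. Mpo and Elane had no count in sham 2 and uninjured and were at 0.0857 and 0.0428 CPM in injured 3. Ptprc, the pan-leukocyte gene, had no count in sham 2 or injured 3. In injured 2, Mpo, Elane and Ptprc stood at 53.1, 43.3 and 15.1 CPM.

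Of the remaining lists of other cells, the 6 Schwann markers summed lower in every injured library than in both sham libraries. They stood at 3417 and 296 CPM in sham, 154 in uninjured and 234, 45.7 and 73.0 CPM in injured. Their relation to the mitotic genes was not tested. The sums of the skeletal muscle and the pericyte and smooth muscle markers overlapped between injured and sham. So did the sum of the 11 skeletal stem, tendon and cartilage markers, which ran from 29971 CPM in sham 1 to 142140 CPM in injured 3. Among these 11, Col2a1 ran from 495 CPM in uninjured to 40956 CPM in injured 3. Lymphocyte markers (9) summed to at most 76.9 CPM, in sham 1. The 8 endothelial markers summed to 1081 and 0.746 CPM in sham, 642 in uninjured and 54.0 to 221 CPM in injured, and 6 of the 8 had no count in sham 2. Between the libraries poor in blood transcripts, injured 3 exceeded sham 2 for 58 of 59 mitotic genes (98.3%, against 54.5% of all genes), with a median difference of 2.77 in log2(CPM + 1). Between the libraries rich in them injured 1 exceeded sham 1 for 47 of 59 (79.7%, against 46.8%), with a median difference of 1.11. With sham 1 and injured 1 both left out, both remaining injured libraries stood above sham 2 for 56 of 59 genes (94.9%, against 38.6% of all genes), and 48 were higher at an unadjusted edgeR p under 0.05 (81.4%, against 7.33%). Sham control is then 1 library and the fit has 1 residual degree of freedom, from the injured libraries, so that p assumes that the lone sham library varies as they do. Injured 2 remains in that comparison and was not poor in blood transcripts. Its erythroid, neutrophil and macrophage markers summed to 594, 558 and 1218 CPM, against 1.19, 23.1 and 47.3 CPM in sham 2. The part of blood transcripts in the mitotic levels of sham 1, injured 1 and injured 2 was not tested.

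**Figure D5:**
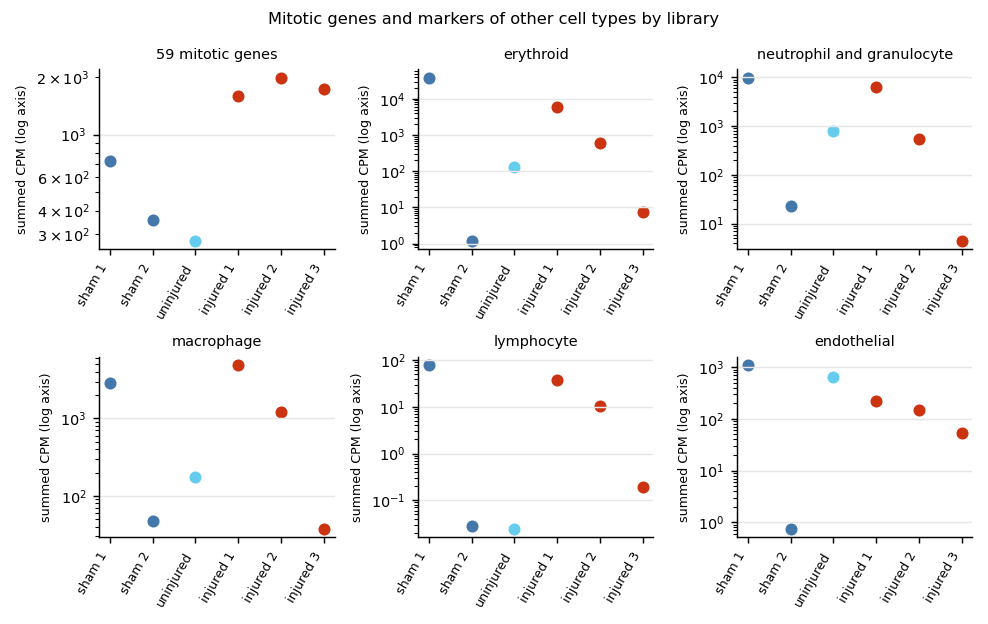
Summed CPM (log axes) of the 59 mitotic genes and of markers of 5 other cell types in each library (dark blue, sham; light blue, uninjured; red, injured). The mitotic sum is highest in the 3 injured libraries, whereas erythroid and neutrophil markers are highest in sham 1 and injured 1 and lowest in sham 2 and injured 3.

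Related genes were counted in 3 further lists. Of 61 other mitosis genes, 53 had a log2 fold change above 0 (53.7% of all genes), with a median of 1.79. All injured libraries stood above both sham libraries for 29 (11.9% of all genes). By edgeR 0 passed, and 10 had an unadjusted p under 0.05, all higher (2.44% of all genes). DESeq2 called 9, all higher (1.43% of all genes). The 3 with the smallest p were Cdca3, a trigger of mitotic entry, the kinase Pbk and sororin (Cdca5), which protects cohesin. Cdca3 stood at 7.16 and 6.74 CPM in sham, 0 in uninjured and 70.5, 64.1 and 39.0 CPM in injured. Pbk stood at 0 and 0.166, 0, and 21.9, 24.8 and 33.8 CPM. Cdca5 had no count outside the injured libraries, which held 24.4, 3.57 and 9.21 CPM.

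Of 25 DNA replication genes, 21 had a fold above 0 (53.7% of all genes), with a median of 1.13. All injured libraries stood above sham for 14 (11.9% of all genes). By edgeR 0 passed, and 8 had an unadjusted p under 0.05, all higher (2.44% of all genes). DESeq2 called 3, Dtl, Timeless and Cdc6 (1.43% of all genes were called higher). The mean level of the 25 genes was 3.26 and 3.28 log2(CPM + 1) in sham 1 and 2. The gap between these libraries seen for the 59 mitotic genes was absent. In uninjured the mean was 2.40, and in injured 4.49, 4.38 and 4.38. Cdc6, the loader of the replicative helicase, had no count in sham, stood at 2.02 CPM in uninjured and at 13.1, 9.63 and 5.89 CPM in injured. Regulators that bind mitotic promoters (17 genes of MuvB, E2F and NF-Y) showed no common direction, with 8 above 0, a median of -0.15 and 0 called by edgeR or DESeq2, and 0 had an unadjusted edgeR p under 0.05. The 3 with the smallest p went both ways. Lin37 of MuvB stood at 6.70 and 5.03 CPM in sham, 13.9 in uninjured and 19.0, 16.7 and 9.16 CPM in injured. E2f1, an activator of replication genes, stood at 17.1 and 14.8, 0.755, and 58.5, 17.4 and 20.1 CPM. Tfdp2, a dimer partner of E2F proteins, had every injured library below sham, at 30.1 and 16.6, 30.3, and 5.21, 15.4 and 16.5 CPM (log2 fold change -0.92 ± 0.71, SE).

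Promoter letters and expression were set side by side. The 33 genes with both a CHR and a CCAAT match in a window had a median log2 fold change of 2.14. Of them 24 had all injured libraries above both sham libraries, which held for 11.9% of all genes. The 17 genes with a window but not both matches had a median of 1.72, and 9 of 17 were separated. Nek6, Birc5 and Gtse1 were among the latter.

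With the uninjured library counted as a non-injured control, 3 injured libraries were set against 3 others. This comparison shares its injured and sham libraries with the first and is no independent repeat. Of the 59 genes 58 were tested, Kif14 being too low. By edgeR 0 of 58 passed over 14110 genes (0% of all genes), with a smallest adjusted p of 0.212 for Kif23, and 21 had an unadjusted p under 0.05, all higher (3.71% of all genes were higher at that limit and 3.72% lower). The log2 fold change was above 0 for 56 of 58 (50.1% of all genes), with a median of 2.34 against 0.00 over all genes. All injured libraries stood above all 3 non-injured libraries for 36 of the 58 tested (9.23% of all genes), and below for Pttg1 (7.07%).

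DESeq2 called 7 of the 58, all higher (0.992% of all genes were called higher and 1.45% lower): Nek6, Cenpf, Ttk, Kif22, Kif23, Prc1 and Ncapd2. Nek6 had log2 fold changes of 1.72 ± 0.40 against sham and 1.89 ± 0.34 against all non-injured libraries (SE). Kif22 had 2.85 ± 0.88 and 2.75 ± 0.70 (SE) in the same order. The edgeR adjusted p was 0.324 for Nek6 and 0.452 for Kif22 in this comparison. Of the 10 genes that DESeq2 called against sham control, Ccna2, Birc5, Cenpe, Cenpn, Espl1 and Gtse1 were not called here. Cenpe, Cenpn, Espl1 and Gtse1 had counts in the uninjured library, and Ccna2 and Birc5 had none. Gtse1 had a log2 fold change of 2.57 ± 2.23 (SE, DESeq2 adjusted p = 0.832), and Cenpn, at 3.8 CPM in uninjured, overlapped. Birc5 and Ccna2 had log2 fold changes of 2.99 ± 1.54 and 4.42 ± 1.60 (SE, DESeq2 adjusted p = 0.398 and 0.0608).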

How the data were processed

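RNA of sorted skeletal stem cells was amplified from 150 pg with a SMARTer kit and sequenced. The deposited table holds whole-number counts per gene symbol for 6 libraries; the submitters' processing notes name Salmon 0.12.0, DESeq2 1.22.2 and the builds GRCm38.p6 and mm9 without roles. No label or header says how transcripts were summed or whether strand was used. Of the 59 genes, 12 have an exon that overlaps a gene on the opposite strand and 2 a gene on the same strand. The genes, lists and tests were chosen with earlier results of these data known.

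Genes were filtered with filterByExpr (minimum count 10), scaled by TMM and tested with edgeR 4.0.16 (quasi-likelihood, R 4.3.3), adjusted by Benjamini-Hochberg over all genes tested, threshold 0.05. All 6 libraries entered 1 fit as 3 groups with 3 residual degrees of freedom, or as 2 groups with the uninjured library as a control. DESeq2 1.42.0, limma-voom (limma 3.58.1), other scalings, no filter, left-out libraries and a replicate block were alternatives. Scripts were tested on simulated data. The SE given with a log2 fold change is approximate. It was back-calculated as the absolute fold change on the log2 scale divided by the square root of the F statistic of the edgeR test. Levels use a pseudocount of 1. Genes with values in every library were, in each role, up to 4 with the smallest p, and Mki67, Top2a, Foxm1, Mybl2, Bub3 and Nek6; others were added after their values were seen. Of other lists the 3 with the smallest p were named. Promoter letters came from RefSeq windows of GRCm38.p6, of which 9 of the 59 genes had no entry.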

Additional observations from a re-analysis of the deposited data

How the results depend on the processing

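The median log2 fold change and the mean level of the 59 genes kept their direction under every alternative run. For 6 genes that overlapped the log2 fold change turned, and the cause was not tested. Against sham control, Bub1 (-0.06) became 0.14 with library size alone, 1.01 with limma-voom, 0.49 with the replicate block and 4.34 with sham 1 and injured 1 left out, and ran from -1.01 (without sham 2) to 3.83 (without sham 1), with 0.44 without injured 1. Kifc1 (-0.23) became 1.69 with limma-voom and 11 with both left out, and ran from -1.23 (without sham 2) to 10.6 (without sham 1, where sham has no count, so the size depends on the prior count), with 0.35 without injured 1. Ncaph (-0.06) became 0.025 with library size alone and ran from -0.31 (without injured 1) to 0.25 (without sham 1), with 0.20 without injured 2. Cdc25b (-0.48) became 0.97 with both left out and ran from -1.24 (without sham 2) to 1.2 (without sham 1). Cdc25c (2.80) became -0.65 with the replicate block, and Ndc80 (0.97) ran from -0.028 (without sham 2) to 11.9 (without sham 1, again with no count in sham). Against all non-injured libraries with 1 library left out, Bub1 ran from -0.15 (without injured 2) to 4.83 and was -0.011 without sham 2 and -0.087 without uninjured. Kifc1 ran from -0.46 (without injured 3) to 8.12 and was -0.23 without sham 2 and -0.25 without uninjured. Ncaph ran from -0.070 (without uninjured) to 1.25, and Cdc25b from -0.86 (without sham 2) to 0.24, each highest without sham 1. With DESeq2, 10 mitotic genes were called higher against sham control and 7 against all non-injured libraries, where edgeR called 0. Of genes higher at an unadjusted p under 0.05, against sham control there were 23 by edgeR, 11 with a replicate block (1 residual degree of freedom), and 48 (7.33% of all genes) with sham 1 and injured 1 left out, an alternative chosen after seeing the data that leaves 1 sham library and 1 residual degree of freedom. Leaving out 1 library in turn gave 7 (without injured 2) to 38 (without sham 1), with 11 without injured 3. Against all non-injured libraries the 21 became 39 with limma-voom, 36 (6.03% of all genes) with sham 1 and injured 1 left out, and 9 (without injured 2) to 35 (without sham 1) with 1 library left out, with 10 without injured 3. The share of all genes at that limit differs between fits. Beyond the main fits it is given only with sham 1 and injured 1 left out. The other counts are therefore not compared with each other. Genes with every injured library below the controls numbered 0 in both comparisons with library size alone, and 1 to 4 against sham control with 1 library left out (4 without sham 2). The median log2 fold change against sham control was 1.62 to 3.77 with 1 library left out. The labels do not say that replicate numbers pair libraries; across 16752 genes the difference of sham 1 and 2 correlated with that of injured 1 and 2 at r = 0.241. With only the part before the start site searched, 36.8% of mitotic promoters held a CHR match (17.1% of all windows) and 35.1% both elements (6.02%). Windows of the other mitosis genes then held 37.7% and 18.9%. With 150 pg of RNA and 2 sham libraries, a gene at 0 in a library may be present below detection.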
